A study of Drosophila melanogaster with 18 samples.

Results

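The transcripts of 5 genes for transcription factors were followed across 6 genotypes of the Drosophila melanogaster eye-antennal disc. They are the AP-1 subunit genes kay, which encodes Fos, and Jra, which encodes Jun, together with Atf3, Ets21C and ftz-f1. They were chosen by name, as the AP-1 subunits and the factors that act with the JNK pathway in scrib mutant tissue. Earlier results of these data were known at that choice, so counts over these 5 give no independent direction. All 5 were found by FlyBase identifier among the 17529 genes of the count table, and all 5 had enough counts to be tested among 10834 genes.

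AP-1 is a dimer of basic leucine zipper (bZIP) proteins, most often Fos with Jun, that binds DNA and switches on the transcriptional response to the kinase JNK. In imaginal discs, JNK signalling is known for its roles in closing epithelia, in wound healing and in the removal or, with other lesions, the overgrowth of cells that have lost apicobasal polarity, as after loss of the scaffold protein Scribble. Atf3 is another bZIP protein that pairs with Jun in flies, Ets21C belongs to the ETS family and ftz-f1 encodes a nuclear receptor best known for timing responses to the steroid hormone ecdysone.

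RNA came from eye-antennal discs, larval epithelia that give rise to the eye, antenna and head capsule, of larvae of the third instar. The control carried the FRT82B chromosome without a further mutation, and the single mutants carried scrib1 (scrib below), fosKM (fos) or CtBP87De-10 (CtBP, a transcriptional co-repressor). The double mutants carried scrib1 fosKM (scrib fos) and CtBP87De-10 scrib1 (CtBP scrib). In every genotype, controls included, this arm stood over an FRT82B arm labelled cell lethal with eyFLP, a flippase driven in the eye primordium, a design in which most disc cells become homozygous for that arm. Each genotype had 3 libraries. RNA of sorts made on different days was pooled into these samples. Whether they represent separate animals or crosses is not stated, and p-values therefore cover only the spread between these samples, which may be technical.

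Totals ran from 22294940 to 35510575 counts per library, and the 5 genes had between 32 (Ets21C) and 6248 (kay) counts in a library. The transcript of CtBP lay at 279 to 361 CPM (the share of a library's counts, scaled between libraries) in the libraries with the CtBP allele and at 809 to 903 in those without it. The scrib transcript ranged over 367 to 491 CPM with the scrib allele and over 463 to 608 without it, so it overlapped, and RNA counts do not show what the allele does to the protein. Markers of eye-antennal identity were present throughout, with a summed level of 3014 to 3122 CPM in control, 2065 to 2346 in scrib and 1672 to 1768 in CtBP scrib. In all 6 genotypes the Hsp70 heat shock genes took their highest share of counts in replicate 1 (0.172% to 0.744%, against 0.00542% to 0.345% in the other libraries), and fits without replicate 1 of every genotype are given where they change a result.

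All 5 transcripts rose in scrib against control, as did 27.8% of all tested genes, and all 5 were lower in scrib fos than in scrib (20.2% of all genes). In CtBP scrib all 5 were above control (31.1% of all genes), and Atf3 and ftz-f1 were also above scrib (9.57%). The latter call of ftz-f1 was lost in 5 of the 6 fits that left out 1 of the compared libraries. In fos alone 0 of them passed the test in edgeR (0.997%). The scrib-dependent rise was smaller in the fos mutant background for kay and Jra. For Atf3, Ets21C and ftz-f1 the change there was negative and did not pass the test. The difference between the backgrounds passed the test for all 5 (12.7% of all genes), most narrowly for kay.

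**Figure D1:**
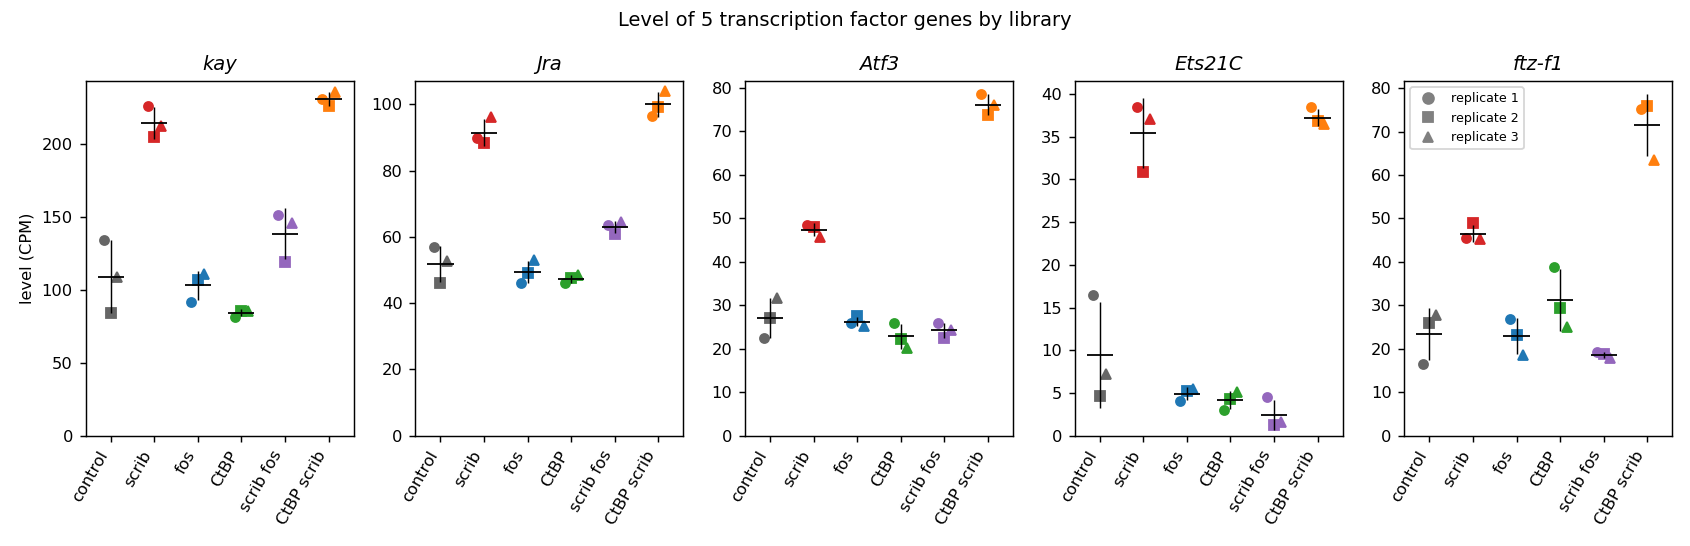
Level in CPM (vertical axes, from 0) of kay, Jra, Atf3, Ets21C and ftz-f1 in each of 18 libraries, by genotype; symbols mark the replicate, horizontal lines the mean and vertical lines the SD of 3 libraries. For every gene the scrib and CtBP scrib libraries lie above those of the other 4 genotypes.

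The gene kay (FBgn0001297) lies on the plus strand of chromosome arm 3R, at 3R:29765995-29794113 of the dm6 assembly, with 5 annotated transcripts from 4 start sites. It is on the same arm as the tested mutations, and it is the gene that the fosKM allele affects. In the control its level was 134, 84.1 and 108 CPM in replicates 1, 2 and 3. In scrib it was 226, 205 and 213 CPM. Every scrib library lay above every control library, and kay was 1.97-fold higher in scrib (log2 fold change 0.98, SE 0.13, edgeR adjusted p = 2.14e-05).

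The fos mutant did not have less kay transcript, with 91.5, 107 and 111 CPM, all within the range of the control (-0.08, SE 0.13, 95% interval -0.37 to 0.20, edgeR adjusted p = 1.00). The allele therefore cannot be checked from the level of this transcript, and what it does to the Fos protein was not measured. In scrib fos the kay level was 151, 119 and 146 CPM. These libraries lay below all 3 scrib libraries (-0.63, SE 0.13, edgeR adjusted p = 0.00159) and partly within the control range.

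Against control, kay was 1.27-fold higher in scrib fos (0.35, SE 0.13, edgeR adjusted p = 0.0432). The call did not survive leaving out control replicate 2 (0.21, adjusted p = 0.0973), control replicate 3 (0.0717), scrib fos replicate 1 (0.131) or scrib fos replicate 3 (0.108), and the value was 0.54 without control replicate 1. Against fos, kay was 1.35-fold higher in scrib fos (0.43, SE 0.13, adjusted p = 0.0158), a call lost without fos replicate 1 (0.0518), scrib fos replicate 1 (0.0566) or replicate 1 of every genotype (0.0719).

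The lowest kay levels were those of CtBP, at 81.6, 85.7 and 85.6 CPM, of which only replicate 1 lay below the lowest control library. The difference from control was not called (-0.37, SE 0.13, edgeR adjusted p = 0.0860). Leaving out control replicate 2 gave a call (-0.53, adjusted p = 0.00132), as did DESeq2 (adjusted p = 0.0152). The highest were those of CtBP scrib, at 231, 226 and 235 CPM, which lay just above the scrib libraries without passing the test (0.11, SE 0.13, edgeR adjusted p = 0.663). Ordered by their means, the genotypes ran CtBP scrib, scrib, scrib fos, control, fos and CtBP. Libraries of scrib fos and control overlapped, as did those of control and fos, and the other neighbours in this order did not.

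Jra (FBgn0001291; 2R:10096480-10098556, plus strand) followed the same order of genotypes as kay, with smaller spread. Its level was 56.9, 46.2 and 52.6 CPM in control and 89.8, 88.5 and 96.3 CPM in scrib, with no overlap. The rise was 1.76-fold (0.82, SE 0.06, edgeR adjusted p = 7.54e-10). In fos it was at 46.2, 49.2 and 53.0 CPM, inside the control range (-0.07, SE 0.06, adjusted p = 0.982).

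In scrib fos, Jra was at 63.6, 60.9 and 64.5 CPM, between the scrib libraries and the control libraries and overlapping neither. It was 1.45-fold lower than in scrib (-0.54, SE 0.06, edgeR adjusted p = 5.73e-07), 1.21-fold higher than in control (0.28, SE 0.06, adjusted p = 0.00107) and 1.27-fold higher than in fos (0.35, SE 0.06, adjusted p = 0.000128). Of the 5 genes, Jra alone kept its calls against both control and fos in scrib fos whichever single library was left out.

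The CtBP libraries had 46.0, 47.5 and 48.4 CPM of Jra, overlapping with control and fos (-0.13 against control, edgeR adjusted p = 0.186). That difference passed the test without control replicate 2 (-0.22, adjusted p = 0.0195). The CtBP scrib libraries had 96.5, 99.4 and 104 CPM, all above the highest scrib library (0.13, SE 0.06, edgeR adjusted p = 0.171 against scrib). Of the exon sequence of Jra, 39 bp (2.38%) are shared with RpLP0-like on the other strand. No source used here gives the strand setting of the counting, and reads of that stretch cannot be assigned. RpLP0-like itself was at 61.5 ± 3.26 CPM in control and 94.1 ± 5.83 in scrib (0.61, adjusted p = 6.55e-08).

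Per kb of exon, Jra was the more abundant, with 31.6 ± 3.28 CPM per kb against 14.0 ± 3.21 for kay in control and 55.7 ± 2.56 against 27.5 ± 1.38 in scrib (mean ± SD, n = 3). Within a library, the ratio of kay to Jra per kb averaged 0.376 in CtBP, 0.438 in both control and fos, 0.463 in scrib fos, 0.487 in CtBP scrib and 0.494 in scrib. The CtBP libraries, at 0.373 to 0.380, lay below every library of the other genotypes. The margin was small, with control at 0.384 to 0.497, and the ratio was not tested. Across the 18 libraries their log2 levels had a Pearson r of 0.98 and a Spearman rho of 0.98, given as a description since libraries of a genotype share their origin.

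**Figure D2:**
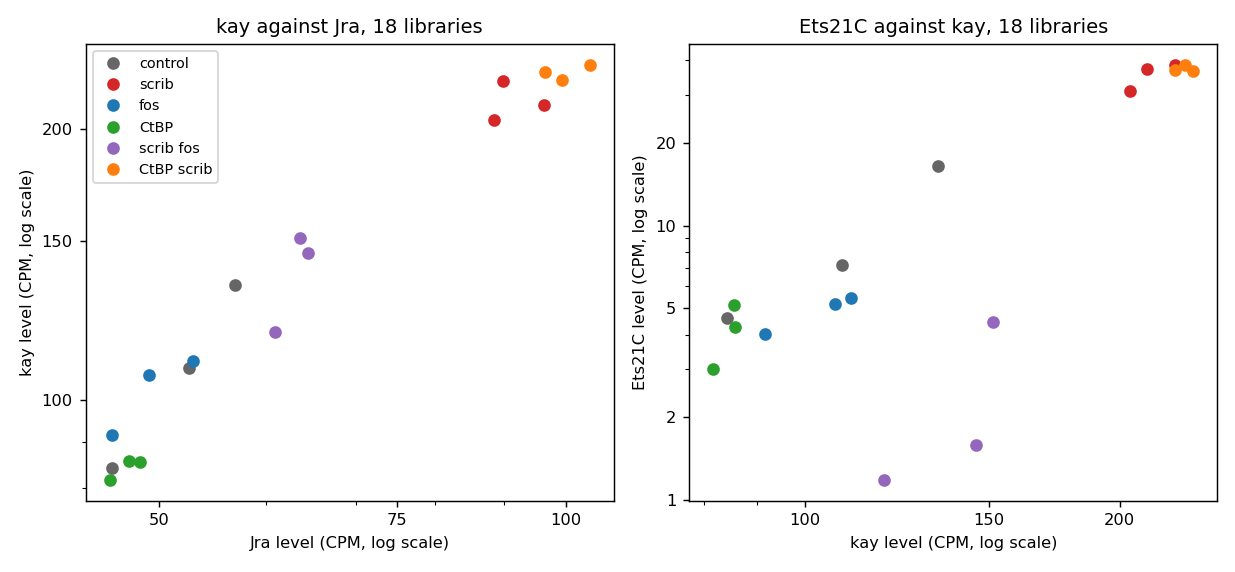
Left, kay level against Jra level; right, Ets21C level against kay level, both in CPM on log axes, 1 point per library (18), coloured by genotype. Points of kay and Jra rise together through the genotypes, whereas the scrib fos libraries have 119 to 151 CPM of kay and 1.18 to 4.47 CPM of Ets21C.

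Atf3 (FBgn0028550; X:1242740-1275284, minus strand) was at 22.3, 26.9 and 31.6 CPM in control. In scrib it was at 48.4, 48.0 and 45.6 CPM, clear of the control libraries. It rose 1.76-fold (0.81, SE 0.10, edgeR adjusted p = 1.13e-06). In fos its level was 26.0, 27.4 and 25.2 CPM, inside the control range (-0.04, SE 0.10, adjusted p = 1.00).

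In scrib fos, Atf3 was at 25.8, 22.5 and 24.2 CPM. These values lay inside the control range, and the difference from control did not pass the test (-0.16, SE 0.10, 95% interval -0.36 to 0.05, edgeR adjusted p = 0.208), although it passed without control replicate 1 (-0.26, adjusted p = 0.0200). Against scrib, Atf3 was 1.96-fold lower in scrib fos (-0.97, SE 0.10, edgeR adjusted p = 2.35e-07). Against fos it was at -0.12 (95% interval -0.33 to 0.09, adjusted p = 0.351).

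Atf3 differed from the AP-1 subunit genes in CtBP scrib, where it had its highest level, at 78.6, 73.7 and 76.0 CPM. Every one of these libraries lay far above the scrib libraries, and Atf3 was 1.61-fold higher than in scrib (0.68, SE 0.09, edgeR adjusted p = 2.38e-05). In CtBP alone it was at 25.9, 22.2 and 20.2 CPM, not above control (-0.24, SE 0.10, adjusted p = 0.132). That difference passed the test without control replicate 1 (-0.37, adjusted p = 0.00722), without CtBP replicate 1 (-0.34, adjusted p = 0.0349) and without replicate 1 of every genotype (-0.46, adjusted p = 0.00123). Below CtBP scrib and scrib, the control, fos, scrib fos and CtBP libraries overlapped with their neighbours in order.

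Ets21C (FBgn0005660; 2L:544925-552923, minus strand) had the widest range of the 5. In control it was at 16.5, 4.62 and 7.19 CPM, and replicate 1 stood apart. In scrib it was at 38.5, 30.8 and 37.1 CPM, all above the highest control library. The rise was 3.75-fold (1.91, SE 0.38, edgeR adjusted p = 0.000893), and 2.59 on the log2 scale without control replicate 1 (adjusted p = 3.58e-05).

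Its level in fos was 4.02, 5.20 and 5.47 CPM and in CtBP 3.01, 4.28 and 5.15 CPM. Both groups overlapped with the lower control libraries, and neither difference from control passed the test (-0.95 in fos, 95% interval -1.91 to 0.02, edgeR adjusted p = 0.664; -1.20 in CtBP, adjusted p = 0.109). The value in CtBP was called without control replicate 2 (-1.53, adjusted p = 0.0322). Without control replicate 1, the library that stood apart, the differences were -0.53 in CtBP (adjusted p = 0.503) and -0.27 in fos, and without replicate 1 of every genotype they were -0.34 and -0.15. At this spread a decrease of moderate size in fos was not detectable.

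In scrib fos, Ets21C was at 4.47, 1.18 and 1.59 CPM, from 133, 32 and 56 counts. This was the lowest mean of the 6 genotypes, with libraries far below those of scrib. Ets21C was 14.7-fold lower than in scrib (-3.88, SE 0.45, edgeR adjusted p = 1.59e-05), which ranked 49 by size among 10834 genes in that comparison. Without scrib fos replicate 1 the value was -4.65 (adjusted p = 1.50e-05).

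Jra was above control in scrib fos, as was kay by a call lost in 4 of the 6 fits without 1 of the compared libraries. Ets21C was instead below control there (-1.97, SE 0.49, edgeR adjusted p = 0.00520). All 3 libraries lay below the lowest control library, the nearest by a small margin. The value was -1.28 without control replicate 1 (adjusted p = 0.0248) and -2.74 without scrib fos replicate 1, and with only these genotypes in the fit the call was lost (adjusted p = 0.108). Against fos the difference did not pass the test (-1.02, 95% interval -2.18 to 0.13, adjusted p = 0.134). It did without scrib fos replicate 1 (-1.79, adjusted p = 0.0244) and without replicate 1 of every genotype (-1.91, adjusted p = 9.43e-05).

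CtBP scrib had 38.4, 36.9 and 36.5 CPM of Ets21C, overlapping with scrib (0.07, SE 0.34, 95% interval -0.68 to 0.82, edgeR adjusted p = 0.932). Within a library, the ratio of kay to Ets21C per kb averaged 4.22 in scrib and 4.30 in CtBP scrib, 9.59 in control, 14.7 in fos, 14.8 in CtBP and 52.3 in scrib fos. The plot of Ets21C against kay shows this as a drop of the scrib fos libraries below the rest.

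Of the exon sequence of Ets21C, 1532 bp (28.3%) overlap nAChRbeta3, a subunit gene of nicotinic acetylcholine receptors on the other strand. That gene was at 4.67 ± 0.828 CPM in control, 6.54 ± 0.667 in scrib, 0.687 ± 0.233 in scrib fos and 5.17 ± 0.783 in CtBP scrib. It also was lower in scrib fos than in scrib (-3.23, edgeR adjusted p = 1.05e-09). How far reads of either gene were counted for the other cannot be told apart.

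ftz-f1 (FBgn0001078; 3L:18750607-18801309, minus strand) was at 16.6, 25.9 and 27.8 CPM in control. In scrib it was at 45.5, 48.9 and 45.2 CPM, above all control libraries. It rose 1.99-fold (0.99, SE 0.19, edgeR adjusted p = 0.000588). In fos its level was 26.8, 23.3 and 18.6 CPM, inside the control range (-0.03, SE 0.20, adjusted p = 1.00).

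The CtBP libraries had 38.9, 29.5 and 25.0 CPM of ftz-f1, the only gene of the 5 with a higher mean in CtBP than in control, although the groups overlapped and the test was not passed (0.41, SE 0.19, 95% interval -0.00134 to 0.83, edgeR adjusted p = 0.200). In CtBP scrib it reached 75.2, 76.0 and 63.4 CPM, above every scrib library. It was 1.54-fold higher there than in scrib (0.62, SE 0.18, adjusted p = 0.0282). That call was lost in 5 of the 6 fits that left out 1 of the compared libraries, with an adjusted p of up to 0.0951, and held without CtBP scrib replicate 3 (0.0361) and without replicate 1 of every genotype (0.57, adjusted p = 0.0045).

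In scrib fos, ftz-f1 was at 19.2, 18.9 and 17.9 CPM, the lowest mean of the 6 genotypes. It was 2.50-fold lower than in scrib (-1.32, SE 0.19, edgeR adjusted p = 9.62e-05) and within the control range (-0.33, SE 0.20, adjusted p = 0.191), although the latter difference passed without control replicate 1 (-0.51, adjusted p = 0.0261). Against fos it was at -0.30 (95% interval -0.73 to 0.13, adjusted p = 0.237).

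The noncoding gene lncRNA:CR45939 lies inside ftz-f1 on the same strand and shares 2521 bp (29.4%) of its exon sequence. Its level was 8.66 ± 1.51 CPM in control, 17.8 ± 0.592 in scrib, 7.55 ± 0.172 in scrib fos and 28.5 ± 2.60 in CtBP scrib, and it passed the test in the same directions as ftz-f1 (1.04, adjusted p = 7.69e-06 for scrib against control; -1.23, adjusted p = 1.97e-06 for scrib fos against scrib; 0.68, adjusted p = 0.000966 for CtBP scrib against scrib). The counts of these genes are therefore uncertain in their split.

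Set side by side per kb of exon, the levels in control were 31.6 CPM per kb for Jra, 14.0 for kay, 3.84 for Atf3, 2.73 for ftz-f1 and 1.74 for Ets21C. In scrib they were 55.7, 27.5, 6.74, 5.42 and 6.56, so that Ets21C came close to Atf3 and passed ftz-f1. In scrib fos they were 38.4, 17.8, 3.44, 2.17 and 0.446. In each of these genotypes the AP-1 subunit genes stood above the other 3. The exon lengths used include the 28.3% of Ets21C and the 29.4% of ftz-f1 shared with another gene. The order of Atf3, ftz-f1 and Ets21C per kb is therefore uncertain.

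Counted together, 5 of 5 genes rose in scrib against control, where 27.8% of all tested genes were called higher. The median log2 fold change of the 5 was 0.98 and that of all tested genes 0.01. In bulk RNA a change in the number of cells of a type and a change in RNA per cell cannot be told apart. Against control, the fos mutant had 0 of 5 genes called, with 0.997% of all genes called, 0 of 5 at an unadjusted p below 0.05 and 0 of 5 with DESeq2. CtBP against control had 0 of 5 called in edgeR (14.5% of all genes), with 4 of 5 lower at an unadjusted p below 0.05 and 1 of 5 (kay) called with DESeq2.

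For scrib fos against scrib, 5 of 5 genes were lower, where 20.2% of all genes were. The median of the 5 was -0.97. Against control, scrib fos had kay and Jra higher (22.1% of all genes) and Ets21C lower (24.5%), the call of kay being lost in 4 of 6 fits without 1 library. Without replicate 1 of every genotype all 5 were called in that comparison, with Atf3, Ets21C and ftz-f1 lower. For CtBP scrib against scrib, Atf3 and ftz-f1 were higher (9.57% of all genes), the call of ftz-f1 being lost in 5 of 6 fits without 1 library. CtBP scrib against control had 5 of 5 higher (31.1%).

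The rise with scrib loss was next taken in each of 3 backgrounds, control, fos mutant and CtBP mutant. In the fos background (scrib fos against fos) 2 of 5 genes rose, kay and Jra, where 23.0% of all genes did, and the median of the 5 was -0.12. In the CtBP background (CtBP scrib against CtBP) 5 of 5 rose, where 28.9% of all genes did. There kay rose 2.74-fold (1.45, SE 0.13), Jra 2.11-fold (1.08, SE 0.06), Atf3 3.33-fold (1.74, SE 0.10), Ets21C 9.04-fold (3.18, SE 0.42) and ftz-f1 2.30-fold (1.20, SE 0.18), with edgeR adjusted p of 8.55e-05 or less.

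**Figure D3:**
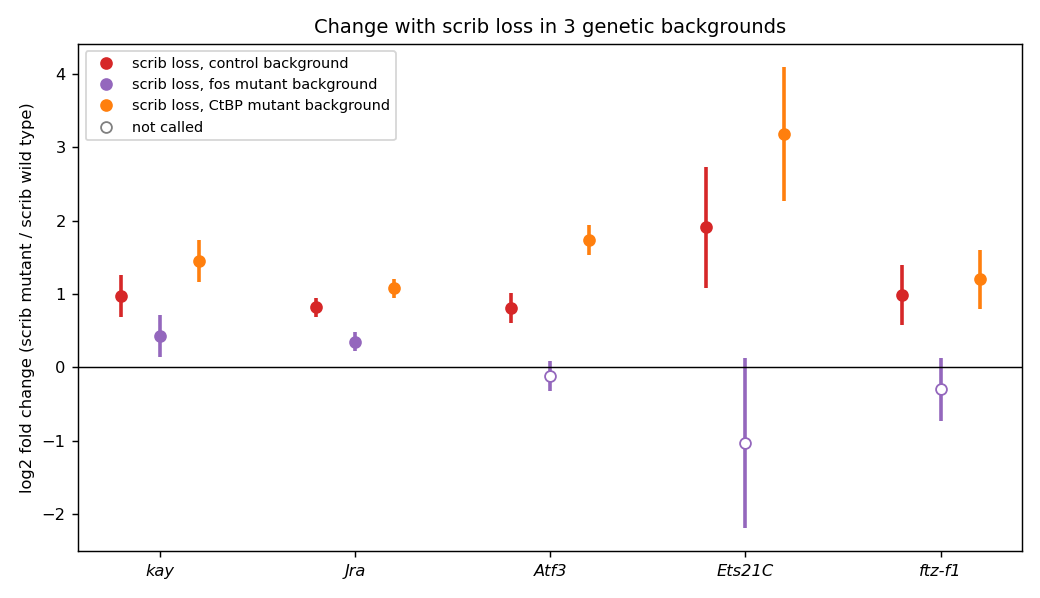
Log2 fold change with scrib loss (vertical axis) of each gene in the control, fos mutant and CtBP mutant background; vertical lines are 95% intervals from the edgeR fit and open symbols mark values that were not called. In the fos background only kay and Jra lie above 0 with their interval, and in the CtBP background all 5 do.

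The difference of the scrib effect between the control and the fos background was tested as an interaction, in which 12.7% of all genes were called lower. All 5 genes were called lower. It was largest in size for Ets21C (-2.93, SE 0.65, edgeR adjusted p = 0.00547), followed by ftz-f1 (-1.29, SE 0.27, adjusted p = 0.00373), Atf3 (-0.93, SE 0.14, adjusted p = 6.47e-05), kay (-0.55, SE 0.19, adjusted p = 0.0479) and Jra (-0.47, SE 0.09, adjusted p = 0.000487). Intervals of 95% were -4.35 to -1.52 for Ets21C, -1.88 to -0.70 for ftz-f1, -1.22 to -0.64 for Atf3, -0.95 to -0.15 for kay and -0.65 to -0.28 for Jra.

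The call for kay was lost in 8 of the 12 fits that left out 1 of the compared libraries (adjusted p of 0.0627 to 0.104), and it held without replicate 1 of every genotype (-0.83, adjusted p = 0.00606). The other 4 genes kept theirs in all 12 fits. Without replicate 1 of every genotype, the interaction of Ets21C was -4.44 (adjusted p = 1.32e-06), and in the fits without 1 library it ran from -3.70 to -2.60.

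For the interaction of scrib and CtBP, Atf3 was called higher (0.92, SE 0.14, edgeR adjusted p = 0.000147), where 5.43% of all genes were. Its rise with scrib loss was thus larger in the CtBP background, 3.33-fold against 1.76-fold. The other 4 did not pass the test, at 0.48 for kay (adjusted p = 0.140), 0.26 for Jra (0.0639), 1.27 for Ets21C (95% interval 0.03 to 2.51, 0.213) and 0.21 for ftz-f1 (0.738), so that a difference was not shown for these genes. Those of kay (0.64, adjusted p = 0.00412) and Jra (0.35, adjusted p = 0.00713) passed without control replicate 2, and that of Jra also without scrib replicate 3 (0.31, adjusted p = 0.0355) and with the replicate number as a block (adjusted p = 0.0428).

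The double mutants compared with each other had 5 of 5 genes lower in scrib fos than in CtBP scrib, where 26.0% of all genes were. The log2 differences were -0.74 for kay, -0.67 for Jra, -1.65 for Atf3, -3.95 for Ets21C and -1.94 for ftz-f1, with edgeR adjusted p of 0.000297 or less. No library of scrib fos reached the lowest of CtBP scrib for any of the 5.

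Other members of the same protein families moved in both directions in scrib, where 27.8% of all tested genes rose and 25.7% fell. Of 15 tested bZIP genes other than kay, Jra and Atf3, 7 rose and 2 fell, with a median of 0.30. The risers included vri, which encodes a repressor of the circadian clock (0.76, adjusted p = 5.37e-05), CrebB, the fly CREB (0.36, adjusted p = 3.90e-06), crc, the fly ATF4 (0.35, adjusted p = 7.24e-07), and cnc, the fly relative of Nrf2 (0.32, adjusted p = 0.000189). Compared with scrib, scrib fos had 7 of the 15 lower and 1 higher, against 20.2% and 17.6% of all genes. Among those that fell were vri (-1.03), cnc (-0.57), REPTOR, a factor repressed by TOR signalling (-0.55), and CrebB (-0.38).

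Of 7 other ETS genes, 3 rose and 2 fell in scrib (27.8% and 25.7% of all genes). Ets96B rose from 0.835 ± 0.343 to 4.01 ± 0.625 CPM (2.26, adjusted p = 4.73e-07) and Ets98B from 12.9 ± 0.827 to 17.6 ± 1.68 (0.45). The ecdysone-induced Eip74EF also rose (0.27). The genes that fell encode an activator and a repressor known to act downstream of the EGF receptor: the activator gene pnt went from 145 ± 7.10 to 54.0 ± 3.20 CPM (-1.43, adjusted p = 8.53e-12) and the repressor gene aop fell by 0.53 on the log2 scale. In scrib fos against scrib, 3 of 7 fell, Ets96B (-2.33), Ets98B (-0.50) and Eip74EF (-0.38), and 2 rose slightly, pnt (0.23) and aop (0.19). The shares of all genes in that comparison were 20.2% lower and 17.6% higher.

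Of 18 tested nuclear receptor genes besides ftz-f1, 3 rose and 9 fell in scrib (27.8% and 25.7% of all genes), with a median of -0.18. The 3 risers were Knirps family genes: kni went from 19.4 ± 1.97 to 43.7 ± 1.48 CPM (1.17), knrl from 21.5 ± 1.88 to 49.6 ± 1.65 (1.21) and eg from 0.963 ± 0.199 to 2.93 ± 0.206 (1.60). By contrast svp, a receptor gene used in photoreceptor fate, fell from 49.9 ± 1.58 to 4.91 ± 0.729 CPM (-3.35, adjusted p = 5.41e-16). Of the 18, 5 were higher in scrib fos than in scrib, svp (0.91) among them, and 4 were lower, among them kni (-1.18), knrl (-1.40) and eg (-0.83). Among all genes, 17.6% were higher and 20.2% lower there.

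**Figure D4:**
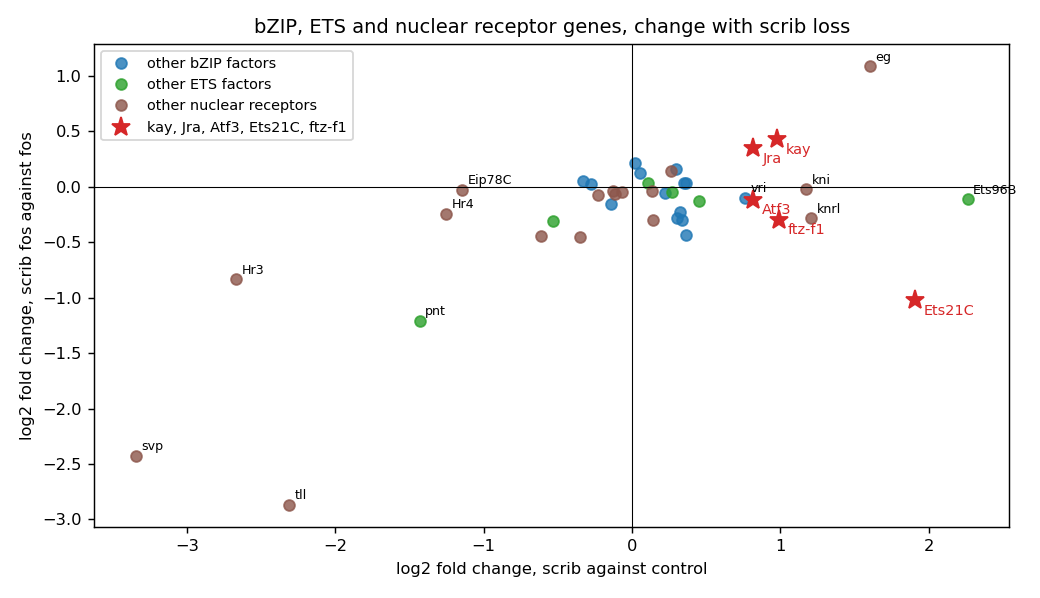
Log2 fold change with scrib loss in the control background (scrib against control, horizontal axis) and in the fos background (scrib fos against fos, vertical axis) for 37 genes of the bZIP, ETS and nuclear receptor families with at least 1 CPM in some genotype, and for the 5 genes (stars). Genes are named where the horizontal value is above 0.75 in size; pnt and svp are low on both axes, and Ets21C is high on one and low on the other.

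Of 15 genes of the upstream JNK cascade, 6 were higher and 4 lower in scrib, the latter close to the share of all genes (27.8% higher and 25.7% lower). The gene for the phosphatase puc, which feeds back on JNK and is itself an AP-1 target, rose from 45.0 ± 4.17 to 124 ± 1.51 CPM (1.46), and the Eiger receptor gene grnd from 96.7 ± 1.16 to 151 ± 3.60 (0.65). The ligand gene egr fell from 37.4 ± 1.91 to 13.6 ± 0.167 CPM (-1.46) and the adaptor gene Traf4 by 1.27 on the log2 scale. Of the 15, 5 were lower in scrib fos than in scrib, among them puc (-1.46), the kinase gene msn (-0.68) and grnd (-0.50), and 4 were higher, among them wgn, another receptor gene (0.62). Among all genes, 20.2% were lower and 17.6% higher in that comparison. For Mkk4, a kinase gene upstream of JNK, the interaction of scrib and fos was -0.73 (adjusted p = 3.57e-08), with 152 ± 8.62 CPM in fos against 109 ± 1.47 in control.

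Of 15 JNK and AP-1 target genes, 13 rose in scrib and 0 fell, where 27.8% of all tested genes rose, and their median was 1.87 against 0.01 for all tested genes. Among them were the filamin gene cher (2.09), the ligand gene Pvf1 (2.42), scaf, a protease-like secreted protein (1.87), and the JAK/STAT ligand gene upd1, which went from 3.90 ± 1.47 to 38.4 ± 2.22 CPM (3.29). In scrib fos against scrib, 13 of 15 were lower and 2 higher (20.2% and 17.6% of all genes; median -1.60), with -3.66 for upd1, -2.14 for Pvf1, -1.60 for cher and -1.46 for puc. The list was made with earlier results of these data known and gives no independent direction.

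In the fos background 7 of these 15 targets rose with scrib loss and 1 fell, where 23.0% and 24.4% of all genes did, with a median of 0.30. Of the 7, 5 had also risen in the control background, each with a smaller value in the fos background: 1.08 for scaf, 0.74 for ImpL2, 0.52 for cher, 0.45 for Pvf1 and 0.20 for puc. The other 2, Gadd45 and the integrin gene mew, were not called in the control background (0.23 and 0.11) and had larger values in the fos background (0.64 and 0.30), although their interaction did not pass the test (adjusted p = 0.315 and 0.109). The ligand gene upd1 did not pass the test (-0.31, adjusted p = 0.219). The interaction of scrib and fos was negative and called for 11 of the 15 (12.7% of all genes) and positive and called for 0. In the CtBP background 14 of the 15 rose (28.9% of all genes), with a median of 2.28.

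**Figure D5:**
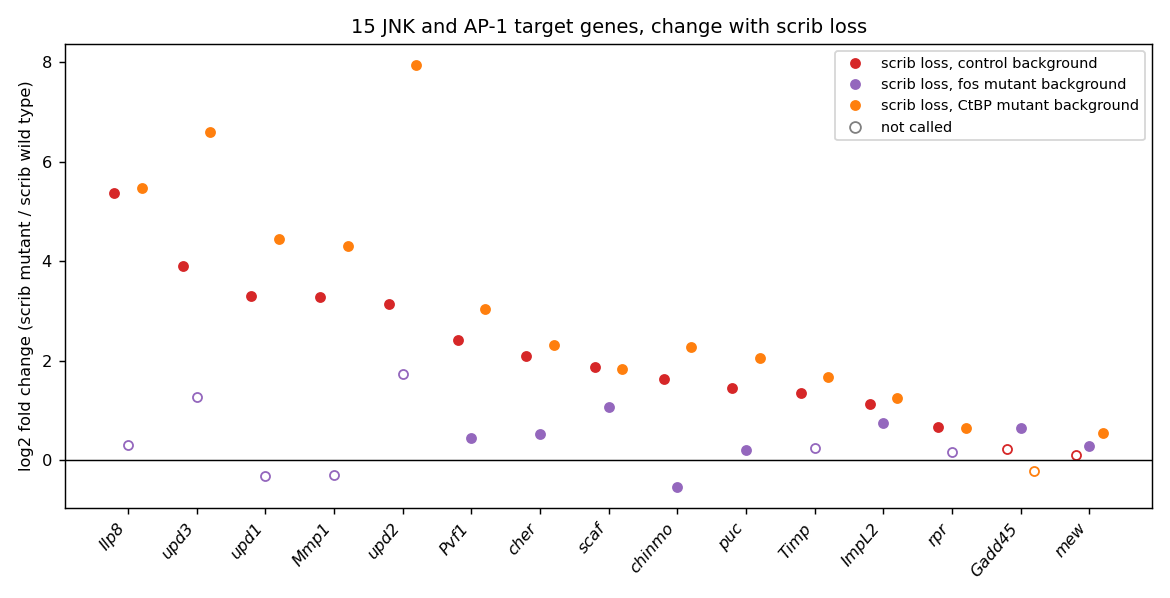
Log2 fold change with scrib loss (vertical axis) of 15 JNK and AP-1 target genes in the control, fos mutant and CtBP mutant background, ordered by the value in the control background; open symbols were not called. Values in the control and CtBP backgrounds are mostly well above those in the fos background, where 7 genes were called higher.

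Of 9 tested genes for other factors of the tumour network, 3 rose in scrib and 1 fell, with a median of 0.05, and the share of risers was near the 27.8% of all genes. They were chinmo, a gene of early temporal identity (1.63, adjusted p = 6.46e-08), the SOX gene D (0.86) and Myc (0.28, adjusted p = 0.0306), and pnt fell. Compared with scrib, in scrib fos chinmo (-2.24), Myc (-0.60) and D (-0.43) were lower and foxo (0.37) and pnt (0.23) higher (20.2% and 17.6% of all genes).

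The genes most like each of the 5 were named by the Pearson correlation of log2 level over the 18 libraries, among 627 genes. These values follow the genotypes and share libraries, and are a description. For kay they were Jra (0.98), dl, Tep2, sog and Inos (down to 0.95), and for Jra they were kay, sog, dar1, AnxB9 and FASN1 (0.98 to 0.97). The gene most like Atf3 was spir (0.98), followed by form3, flap, Pof and NimB2. Nearest to Ets21C were prage (0.97), Tig (0.97), stac, subdued and Dif, and nearest to ftz-f1 were SP1173 (0.98), AOX3, pigs, chinmo (0.96) and Ude. Among the 5 themselves, r was 0.91 for Atf3 with ftz-f1, and lowest, at 0.65, for kay with ftz-f1.

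Markers of other cells and of developmental timing moved with the genotypes too. Blood cell markers had a summed level of 492 to 669 CPM in control, 279 to 316 in scrib, 163 to 184 in scrib fos and 226 to 240 in CtBP scrib. In scrib, where all 5 factor genes rose, 8 of the 12 markers fell (25.7% of all genes) and 1 rose (27.8%). Against control, scrib fos had 11 of the 12 lower (24.5% of all genes) and 0 higher, with a median of -3.60. Against scrib, it had 9 lower (20.2% of all genes) and 1 higher (17.6%), with a median of -2.92. In scrib fos, where Ets21C was lowest, 9 of the 12 had their lowest level of the 6 genotypes and 4 were below 1 CPM, namely NimC1 (0.69), He (0.53), srp (0.64) and gcm (0.08). The share of this in the low Ets21C level of scrib fos was not tested.

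Ecdysone timing genes, the class in which ftz-f1 acts, fell in scrib in 10 of 14 tested members, where 25.7% of all genes fell, and rose in 1 (median -1.09). Their summed level was 5482 to 7533 CPM in control, 2669 to 3619 in scrib, 5004 to 5139 in scrib fos and 2402 to 2567 in CtBP scrib, and was thus lowest in CtBP scrib and scrib, where ftz-f1 was highest. The ecdysone-inducible ImpE2 was at 2390 ± 555 CPM in control and 279 ± 34.2 in scrib (-3.10), and Eip93F at 10.8 ± 1.85 and 1.77 ± 0.474 (-2.61). In scrib fos against scrib, 7 of 14 rose (17.6% of all genes), among them ImpE3 (1.92), ImpE2 (1.86) and ImpE1 (1.65), and 2 fell. Whether the stage of the discs has a part in the ftz-f1 levels was not tested.

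Photoreceptor and neuron markers fell in scrib in 9 of 9 (25.7% of all genes) and summed to 655 to 788 CPM there against 1573 to 1655 in control, and 8 of 11 disc identity markers fell and 1 rose. In scrib fos against scrib, 5 of 9 photoreceptor and neuron markers rose and 1 fell, as did 9 and 0 of 11 identity markers (17.6% and 20.2% of all genes). The summed level of the photoreceptor and neuron markers was nevertheless 621 to 700 CPM in scrib fos. Against control, 9 of 9 of them were lower in scrib fos (24.5% of all genes), with a median of -1.57. In CtBP scrib against scrib, 6 of 9 and 8 of 11 fell (9.14% of all genes) and 0 of either list rose. Glia markers had 3 higher and 3 lower of 7 in scrib, trachea markers 3 and 1 of 6, muscle and myoblast markers 2 and 4 of 10, fat body markers 1 and 1 of 7, and heat shock genes 0 and 0 of 6. Among all genes, 27.8% were higher and 25.7% lower in scrib. In scrib fos, 5 of 7 glia markers and 7 of 10 muscle and myoblast markers were lower than in control (24.5% of all genes) and 0 were higher. Compared with scrib, 3 of 7 and 6 of 10 were lower (20.2% of all genes) and 1 and 0 higher (17.6%). The muscle and myoblast markers summed to 164 to 174 CPM in scrib fos, 279 to 342 in scrib and 302 to 341 in control. In fos alone they summed to 203 to 280 CPM. Of the 10, 2 were lower than control there and 0 higher (0.997% of all genes called in either direction). The interaction of scrib and fos was called lower for 2 of the 10 (12.7% of all genes). The trachea markers summed to 3523 to 3658 CPM in CtBP scrib, 2095 to 2210 in scrib, 2107 to 2346 in scrib fos and 1521 to 1611 in control. CtBP alone had 2281 to 2578 CPM of them, with 2 of 6 higher than in control and 0 lower (14.5% of all genes called in either direction). In CtBP scrib, 3 of these 6 were higher and 1 lower than in scrib (9.57% and 9.14% of all genes). The part of these marker lists in the levels of the 5 factor genes was not tested.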

How the data were processed

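The 18 libraries (3 for each of 6 genotypes) were grouped and numbered by their titles. Per the labels' protocols, RNA was isolated from sorted cells with Trizol, sorts of several days were combined into 3 samples per genotype, and TruSeq RNA libraries were prepared. No source used here describes the sort gate. The authors' tools were Subread, featureCounts and edgeR on dm6, per the submitters' processing notes, and the deposited values are whole-number read counts per gene with no normalization. Not given in the sources used here are tool versions, annotation and strand setting. All 18 columns were matched to a sample.

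Symbols, positions and exon lengths came from the Ensembl annotation of dm6 (17425 of 17529 genes matched). Counts were filtered with filterByExpr (10834 genes stayed in and 6695 were dropped). TMM scaling was used, and 1 model was fitted over all libraries by glmQLFit (robust) of edgeR 4.0.16 in R 4.3.3. There were 12 residual degrees of freedom and a biological coefficient of variation of 8.88%. The 10 comparisons between genotypes and 2 interactions were tested two-sided with glmQLFTest, with p-values adjusted by the Benjamini-Hochberg method over all tested genes, and adjusted p below 0.05 made a call. The SE was the log2 fold change divided by the square root of F, and intervals are 95%. CPM used TMM-scaled library sizes. The pipeline was tested on simulated data. Libraries of 1 genotype all differed by more than sampling noise (lowest chi-square 4.41 for each degree of freedom).

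The 5 genes and the 15 other gene lists were chosen with earlier results of these data known. Beside the 5 genes, named genes were up to 4 per pathway list with the smallest p in scrib against control, scrib fos against scrib or the interaction of scrib and fos, the genes of lists under 8, and 5 genes per factor by correlation (mean of at least 10 CPM, genotype means spanning at least 1 on the log2 scale, prior count 2). The 4 blood cell markers below 1 CPM and the targets ImpL2, Gadd45 and mew were named after their values were seen. Other settings were DESeq2 1.42.0 size factors and Wald test, no filter, at least 5 CPM in 3 libraries, only the compared groups, a replicate block, each library left out, replicate 1 of every genotype left out, no ribosomal RNA genes and a fold change of at least 2. Promoter motifs and protein sequences are not analysed here.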

Additional observations from a re-analysis of the deposited data

Results flagged for a closer look

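For each of the 5 genes the effect of scrib loss differed between the control and the fos mutant background by a test of the difference itself (edgeR interaction, adjusted over 10834 genes). The differences were -0.55 for kay (adjusted p = 0.0479), -0.47 for Jra (0.000487), -0.93 for Atf3 (6.47e-05), -2.93 for Ets21C (0.00547) and -1.29 for ftz-f1 (0.00373) on the log2 scale. The call for kay is not firm, as it was lost in 8 of the 12 fits without 1 of the compared libraries. For Atf3 the effect of scrib loss also differed between the control and the CtBP mutant background, by 0.92 (adjusted p = 0.000147). Groups of 3 libraries are too small for a test of single outlying libraries. Control replicate 1 had the highest Ets21C and kay and the lowest Atf3 and ftz-f1 of the 3 control libraries, so its weight differs in sign between these genes.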

How the results depend on the processing

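The 38 called values of the 5 genes gave 568 values under other settings, of which 539 kept their direction and call, 29 lost the call and 0 reversed. Among the values that other settings gave for results uncalled in the main fit, 306 kept their direction and stayed uncalled. Of the rest, 18 became called and 8 reversed sign. For fos against control, kay was at 0.174 and Jra at 0.0471 without replicate 1 of every genotype. With 1 library left out, kay ran from -0.236 to 0.0948 there (reversed without control replicate 1), Atf3 from -0.160 to 0.0947 (control replicate 3) and ftz-f1 from -0.231 to 0.115 (control replicate 3; 0.0450 without control replicate 2, and 0.0959 without the third fos library). For CtBP scrib against scrib, Ets21C ran from -0.0215 (without scrib replicate 2) to 0.127.

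With no single library left out, the number of the 5 genes called moved by more than 1.5 times in the cases given here. It was 1 for CtBP scrib against scrib with no filter, where ftz-f1 was lost (adjusted p = 0.0565). With replicate 1 of every genotype left out it was 1 for CtBP against control and 5 for scrib fos against control. With only the compared groups it was 1 for scrib fos against control. With DESeq2 it was 1 for CtBP against control and 2 for the interaction of scrib and CtBP (kay added, adjusted p = 0.0384), and with the replicate block it was also 2 for that interaction (Jra added, 0.0428). With a fold change of at least 2 it was 1 for scrib against control, 1 for scrib fos against control, 2 for scrib fos against scrib, 0 for CtBP scrib against scrib, 0 for scrib fos against fos, 3 for scrib fos against CtBP scrib, 2 for the interaction with fos and 0 for that with CtBP. The all-gene counts at that threshold were, in the order of the comparisons with control (scrib, fos, CtBP, scrib fos, CtBP scrib), 1520, 20, 304, 1171 and 1898. They were 858 for scrib fos and 413 for CtBP scrib against scrib, 1101 for scrib fos against fos, 1759 for CtBP scrib against CtBP, 1460 between the double mutants, and 677 and 303 for the interactions with fos and CtBP. These follow from the stricter rule. The cause of the other changes was not tested.

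With 1 library left out, the number of the 5 genes called was 0 to 3 for CtBP against control, 2 to 5 for scrib fos against control, 1 to 2 for scrib fos against fos and for CtBP scrib against scrib, 4 to 5 for the interaction with fos and 1 to 3 for that with CtBP, and 57 to 96 of all genes were called in fos against control. The interaction of kay with fos was also lost with DESeq2 size factors in edgeR (adjusted p = 0.0578), no filter (0.116), no ribosomal RNA genes (0.0587) and only the compared groups (0.132), and its rise in scrib fos against control with no filter (0.0515), the 5 CPM filter (0.0514) and only the compared groups (0.207).

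Same-numbered libraries deviated together (all 3 correlations above 0.1) in 1 of 15 pairs of genotypes, control with scrib, the range over all pairs being -0.159 to 0.205, so the numbers were not taken as pairs. When each library was compared with the 3 of another genotype, its own number gave the best correlation in 46 of 90 comparisons, more than the 30 that unrelated numbers would give, which is a hint from the data and not the design. With the replicate block, 2 of the 5 genes were called in the interaction with CtBP and no other call of the 5 changed.

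Depth limits Ets21C most, with 32 to 133 counts in the scrib fos libraries, and its control libraries spread 3.57-fold. Overlapping genes limit Ets21C and ftz-f1, whose exons are shared by 28.3% and 29.4% with another gene.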
